A study of Mus musculus with 8 samples.

Results

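The chitinase-like genes examined were Chil3, Chil4, Chil1 and Chit1, which were taken by name together with every probe set that the platform annotation pairs with them. They had 5 probe sets of the 45037 tested and were 4 of 18193 genes. 4 of the probe sets named 1 gene each, and the fifth, 1425451_s_at, named both Chil4 and Chil3. The set was chosen because Chil3 had the hormone response that differed most between the genotypes, so the values of Chil3 and of the shared probe set are given as a description with no test. Chil4, Chil1 and Chit1 were not chosen by their values and were tested.

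RNA was measured on Affymetrix mouse arrays in peritoneal macrophages of male C57BL6/J mice, elicited with 3% thioglycolate, collected 4 days after the injection and kept by adherence. Control cells had the genotype MR fl / fl, in which the mineralocorticoid receptor gene Nr3c2 is floxed, and knockout cells were MR fl / fl, LysM cre. LysM is the lysozyme gene Lyz2, which is active in macrophages, monocytes and neutrophils, so both genotypes carry the floxed gene and the knockout rests on how fully Cre acts in those cells. Cells of each genotype stood for 24 h with no treatment or with 1 µM corticosterone, the main glucocorticoid of mice, which can bind both the glucocorticoid and the mineralocorticoid receptor. This gave 4 groups of 2 arrays, 8 in all, made to ask how loss of the receptor alters the glucocorticoid response. The labels call the arrays of a group biological replicates, and the design text says that each sample was a pool of triplicate experiments, so the p-values below speak only of the spread among these pools, and part of it may be technical. The age of the mice was not given in the sources used here.

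Chitinases of glycosyl hydrolase family 18 cut chitin, the polymer of fungal walls and arthropod shells. Chit1, chitotriosidase, is the active chitinase of the set and is made by macrophages. Chil1, Chil3 and Chil4 keep the fold and can bind sugars but have lost the catalytic activity. Chil3 (Ym1) and Chil4 (Ym2) are secreted proteins found in rodents. Chil3 is a widely used marker of macrophages activated by IL-4 or IL-13 through the factor STAT6, and it is also made by some monocytes and by neutrophil precursors. Chil4 is better known from airway and stomach epithelium. Chil1 (also Brp39) is made by macrophages and by other cells, among them connective tissue cells.

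In the RefSeq annotation of assembly GRCm38.p6, Chil3 lies on chr3:106147554-106167564 and Chil4 on chr3:106201491-106219479, both on the minus strand and with 33926 bases between them. Chit1, on chr1:134111242-134151541, and Chil1, on chr1:134182156-134190031, are likewise neighbours, 30614 bases apart. The upstream windows of Chil3 and Chil4 are shown because these genes are near copies whose own probe sets read very different values below. Each run is the 250 bases before the annotated start, 5′ to 3′ on the minus strand, at chr3:106167565-106167814 for Chil3 and at chr3:106219480-106219729 for Chil4. The capitals mark the match to the STAT motif TTCNNNGAA.
Chil3: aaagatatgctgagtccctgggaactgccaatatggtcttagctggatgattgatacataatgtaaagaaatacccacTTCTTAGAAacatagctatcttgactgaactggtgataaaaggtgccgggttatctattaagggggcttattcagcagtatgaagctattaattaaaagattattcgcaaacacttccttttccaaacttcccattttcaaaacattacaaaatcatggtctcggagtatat
Chil4: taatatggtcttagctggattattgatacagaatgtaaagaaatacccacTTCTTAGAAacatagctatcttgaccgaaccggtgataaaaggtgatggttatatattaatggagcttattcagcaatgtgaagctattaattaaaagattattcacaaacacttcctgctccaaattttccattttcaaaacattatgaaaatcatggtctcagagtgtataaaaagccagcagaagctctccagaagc
The windows of 300 bases around the starts, of which the runs above are the upstream part, aligned over 271 bases with 251 identical, or 92.6%, and with 2 gap bases. The other 5 pairs of the set had 63.7% to 72.3% identical bases in alignments that needed 71 to 98 gap bases. The STAT match TTCTTAGAA stood at the same aligned place in both, from base -172 to -164 of Chil3 and from -200 to -192 of Chil4, where -1 is the base before the annotated start. Of 32851 upstream windows of this length, 7.02% held TTCNNNGAA on either strand, and those of Chil1 and Chit1 did not.

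Other motifs were searched on both strands of the same 250 bases, and matches of different motifs were allowed to overlap. TTNNGNAA, a loose form of the site of C/EBP factors, matched 3 times in Chil3, 3 times in Chil4 and once in Chil1, and 36.8% of all windows held it. One of these matches, at base -37 of Chil3, had its counterpart on the same strand at the same aligned place of Chil4. Matches on opposite strands, such as that at -27 of Chil3 and that at -56 of Chil4, were not counted as counterparts. The palindromic glucocorticoid response element, searched as GNACA and TGTNC with 3 bases between them and held by 0.387% of windows, was not among the letters of any of the 4 genes' windows. Nor were its half-site TGTTCT (16.1% of windows), the STAT6 motif of TTC and GAA with 4 bases between them (5.85%), or the PU.1 core GAGGAA (23.3%). No match of another motif overlapped the STAT match of Chil3 or Chil4. A match is a run of letters and no measured binding.

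The deposited values are log2 expression levels made with RMA, so 1 unit is a doubling, and a difference is a fold change on the log2 scale. Array medians ran from 5.55 to 5.58. Control untreated replicate 2 stood apart from the other 7 arrays: its median correlation with them was 0.919, against 0.994 to 0.995 for the rest. On it the difference between 3′ and 5′ probe sets, which grows as RNA is degraded, was 2.18 for Actb and 1.84 for Gapdh, against at most 0.62 and 0.79 elsewhere. The differences of Chil3, Chil4 and Chil1 are therefore given with 8 arrays and with the 7 that leave it out, other genes mostly with 7 and with 8 where the direction turns, in which case the control untreated group is 1 array, taken to vary as the other groups do. Nr3c2 itself read 6.39 and 8.46 in control untreated cells, 6.39 and 6.13 in control cells with corticosterone, 5.54 and 5.82 in knockout untreated cells and 5.11 and 5.47 in knockout cells with corticosterone, so every knockout array lay below every control array. With 7 arrays the knockout difference of Nr3c2 was -0.97 with hormone (limma adjusted p = 0.0290) and -0.71 without (adjusted p = 0.161). With 8 arrays these were -0.97 and -1.75, and neither was called. Nr3c1, the gene of the glucocorticoid receptor, read 10.54 to 11.32 over the 8 arrays. All 8 macrophage markers read above the array medians. Csf1r, the receptor of the macrophage growth factor, read 13.52 to 13.59 and Lyz2 13.58 to 13.78, while the lowest, Itgam, read 7.42 to 9.08. Mertk read 9.91 to 10.21 without and 11.82 to 11.87 with the hormone, so the list was not steady throughout.

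Chil3 was lower in untreated knockout than in untreated control macrophages, rose with corticosterone in both genotypes, and ended higher in knockout than in control cells with the hormone. Its probe set 1419764_at read 8.34 and 8.04 in control untreated cells, 11.46 and 11.50 in control cells with corticosterone, 6.39 and 6.12 in knockout untreated cells, and 12.31 and 12.32 in knockout cells with corticosterone. The 4 groups did not overlap, and in order of level they were knockout untreated (6.25 ± 0.19, SD, n = 2), control untreated (8.19 ± 0.21), control with corticosterone (11.48 ± 0.026) and knockout with corticosterone (12.32 ± 0.0054). The gap between each pair of neighbours in that order was wider than the spread of the replicates. The control untreated array that stands apart, at 8.04, lay 0.296 below its replicate, about the same gap as between the knockout untreated arrays. Among all arrays, 54.6% to 97.4% of probe sets read lower than Chil3.

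**Figure D1:**
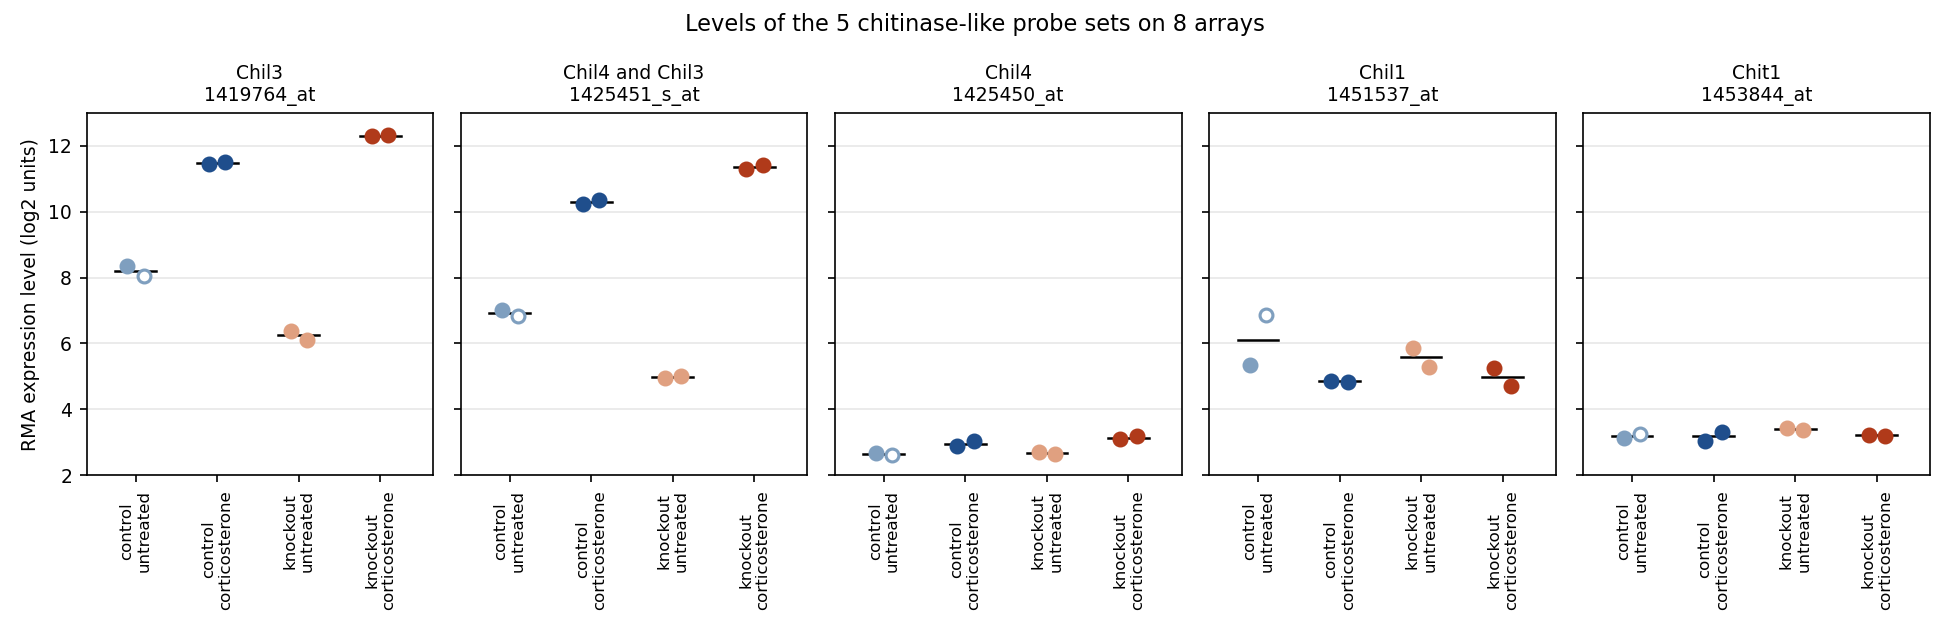
Level of each probe set of the 4 chitinase-like genes (y axis, log2 RMA units) on each of the 8 arrays, in the 4 groups of 2 (x axis), with the group mean as a bar and control untreated replicate 2 as an open point. The Chil3 and the shared probe sets move over 6 units between knockout untreated and knockout with corticosterone, while those of Chil4 and Chit1 stay between 2.61 and 3.44 on every array.

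With 7 arrays, corticosterone raised Chil3 in control cells by 3.14 (SE 0.10), which is 8.80-fold, and in knockout cells by 6.06 (SE 0.08), which is 66.8-fold. In control cells this was the 8th highest difference of the 18193 genes and in knockout cells the highest. Without hormone, knockout minus control was -2.09 (SE 0.10), the second lowest of all genes. With hormone it was 0.84 (SE 0.08), or 1.79-fold, the 135th highest. The hormone response of knockout cells exceeded that of control cells by 2.92 (SE 0.12, 95% interval 2.64 to 3.20). The next gene above 0 in that difference was Smarca1, a chromatin remodelling ATPase, at 1.65, and the lowest gene of all stood at -1.46. These ranks and the interval describe the values by which Chil3 was chosen and give no support of their own.

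With 8 arrays the corresponding differences of Chil3 were 3.29 (SE 0.16) in control cells, 6.06 (SE 0.16) in knockout cells, -1.94 (SE 0.16) between untreated genotypes, 0.84 (SE 0.16) between hormone-treated genotypes, and 2.78 (SE 0.22) for the difference of the responses. The direction of each was the same as with 7 arrays, but the rank of the last was 54th of 18193, in a list led by Smarca1 at 3.82. Without the other control untreated array, replicate 1, it was 2.63. Groups that did not overlap in the same direction were found in 22.4% of all genes for the hormone in control cells, 21.8% for the hormone in knockout cells, 13.7% for lower levels in untreated knockout cells, and 21.6% for higher levels in knockout cells with hormone.

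**Figure D2:**
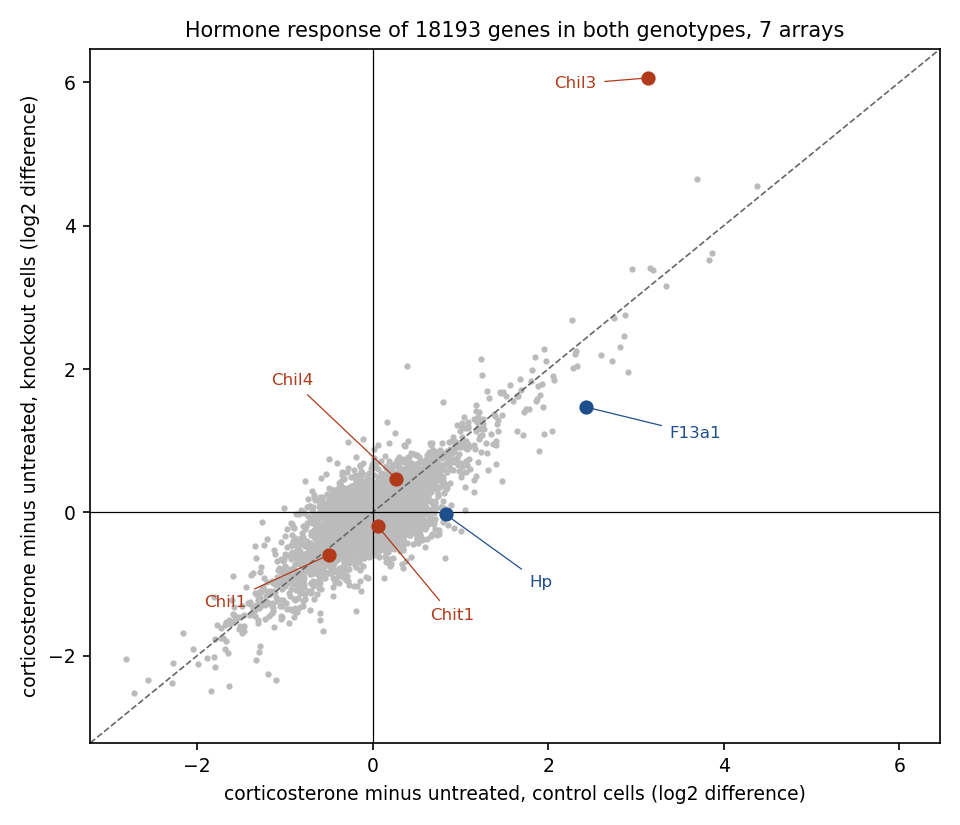
Hormone response of each of the 18193 genes in knockout cells (y axis) against that in control cells (x axis), as log2 differences with 7 arrays, with the chitinase-like genes in red, F13a1 and Hp in blue and a dashed line of equal response. Chil3, at 3.14 and 6.06, lies far above the line, while Chil4, Chil1 and Chit1 lie close to it.

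The shared probe set 1425451_s_at followed the same order on every array. It read 7.03 and 6.84 in control untreated cells, 10.24 and 10.34 in control cells with corticosterone, 4.95 and 5.03 in knockout untreated cells, and 11.29 and 11.41 in knockout cells with corticosterone. It lay 0.91 to 1.44 below the Chil3 probe set on each array. With 7 arrays the hormone difference was 3.26 in control and 6.36 in knockout cells, and the genotype difference was -2.04 without and 1.05 with hormone. The responses differed by 3.09 (SE 0.12), and by 3.00 (SE 0.23) with 8 arrays. Since this probe set is annotated to both genes, it does not say how much of its value comes from either, and it was made from the same RNA as the Chil3 probe set.

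Chil4, on its own probe set 1425450_at, was near the bottom of the array in every group. It read 2.68 and 2.61 in control untreated cells, 2.87 and 3.03 in control cells with corticosterone, 2.69 and 2.64 in knockout untreated cells, and 3.09 and 3.18 in knockout cells with corticosterone. Between 5.10% and 19.3% of probe sets read lower, so its levels lay in a range where RMA compresses differences and where no detection call was used here. Within each genotype both hormone arrays lay above both untreated arrays, which held for 22.4% of all genes in control cells and 21.8% in knockout cells.

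In knockout cells corticosterone raised Chil4 by 0.47 (SE 0.11, 95% interval 0.22 to 0.72) with 7 arrays (limma adjusted p = 0.0211). It was the one gene called of the 3 tested members, in a comparison that called 13.7% of all genes, 5.75% as higher. The alternatives with 7 arrays gave adjusted p from 0.0170 to 0.131, and the call was lost without knockout untreated replicate 2 (0.0770), knockout corticosterone replicate 1 (0.0622) or knockout corticosterone replicate 2 (0.131). With 8 arrays the difference was the same 0.47 and did not pass (adjusted p = 0.268), in a fit that called 0.148% of genes. In control cells the difference was 0.27 (95% interval -0.04 to 0.58, adjusted p = 0.302) with 7 arrays and 0.31 (95% interval 0.09 to 0.53, adjusted p = 0.430) with 8.

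The hormone response of Chil4 was not shown to differ between the genotypes: with 7 arrays the difference was 0.20 (95% interval -0.19 to 0.60, limma adjusted p = 0.951), and with 8 arrays 0.17 (95% interval -0.15 to 0.48, adjusted p = 0.719). Knockout minus control was -0.02 without hormone (95% interval -0.33 to 0.29) and 0.19 with it (95% interval -0.07 to 0.44) with 7 arrays, and neither passed. The untreated genotype difference of Chil3, -2.09, cannot be set against the Chil4 interval. The levels of the probe sets are not comparable, and a fall from 2.68 could hardly be seen.

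Chil1 was measured in the middle of the array and had wider gaps between replicates than the other members in 3 of the 4 groups, but not in control cells with corticosterone. Its probe set 1451537_at read 5.34 and 6.86 in control untreated cells, 4.86 and 4.84 in control cells with corticosterone, 5.86 and 5.29 in knockout untreated cells, and 5.27 and 4.70 in knockout cells with corticosterone. The 6.86 came from the array that stands apart. On that array the summed list of 10 mesothelium and fibroblast markers had a mean level of 8.93, against 6.93 to 7.37 on the other 7. Col1a1, Col1a2, Col3a1, Pdgfra, Dcn, Lum and Wt1 read above the range of the other 7 arrays there. Msln (3.82), Upk3b (5.36) and Krt19 (5.11) stayed within it. The part of such cells in the Chil1 value was not tested. In bulk samples fewer cells of a type and less RNA per cell cannot be told apart.

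Hormone-treated arrays lay below untreated arrays of the same genotype for Chil1, as they did for 20.6% of all genes in control and 28.8% in knockout cells. With 7 arrays the difference was -0.49 (95% interval -1.13 to 0.15, limma adjusted p = 0.369) in control cells and -0.59 (95% interval -1.11 to -0.07, adjusted p = 0.145) in knockout cells, and neither passed. Without knockout untreated replicate 2 the latter became -0.87 (adjusted p = 0.0342, in a fit that called 12.6% of all genes), and its alternatives ranged from 0.0342 to 0.598. With 8 arrays the control difference was -1.25 (95% interval -2.56 to 0.06, adjusted p = 0.430). Dropping control untreated replicate 1, and so leaving the array that stands apart as the lone untreated control, turned it to -2.01 (adjusted p = 0.00017), among alternatives that reached 0.883.

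Knockout minus control for Chil1 was 0.23 without hormone (95% interval -0.40 to 0.87) and 0.14 with hormone (95% interval -0.39 to 0.66) with 7 arrays. With 8 arrays the value without hormone changed sign to -0.53 (95% interval -1.84 to 0.78). The difference of the responses was -0.10 (95% interval -0.92 to 0.73) with 7 arrays and 0.66 (95% interval -1.19 to 2.52) with 8. None of these passed in limma, whether with 7 or with 8 arrays. With control untreated replicate 1 left out they were -1.29 (adjusted p = 0.00304) without hormone and 1.42 (adjusted p = 0.00809) for the responses, and both then rested on the array that stands apart. That fit called 64.4% and 58.7% of all genes in these comparisons, and 64.2% in the hormone response of control cells, so a call there is the usual outcome.

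Chit1, the active chitinase, stayed low in all groups. Its probe set 1453844_at read 3.12 and 3.24 in control untreated cells, 3.04 and 3.32 in control cells with corticosterone, 3.44 and 3.36 in knockout untreated cells, and 3.21 and 3.20 in knockout cells with corticosterone. Between 16.5% and 23.5% of probe sets read lower, and the groups of control cells overlapped. The hormone difference was 0.06 (95% interval -0.30 to 0.42) in control cells and -0.19 (95% interval -0.48 to 0.10) in knockout cells with 7 arrays. Knockout minus control was 0.27 (95% interval -0.09 to 0.63) without and 0.02 (95% interval -0.27 to 0.32) with hormone, and the responses differed by -0.25 (95% interval -0.71 to 0.22). None passed in limma, and the smallest adjusted p of the 5 was 0.439. The 5 differences with 8 arrays ran from -0.19 to 0.21 and none passed.

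Between the genotypes none of Chil4, Chil1 and Chit1 was called by limma, with or without hormone and with 8 or 7 arrays, and 0 of the 3 had an unadjusted p under 0.05 there. Of all genes, 1.99% were called without hormone and 1.63% with it (7 arrays), and 0% in both with 8 arrays. For the difference of the responses 0.0165% of genes were called with 7 arrays and 0% with 8, and again 0 of the 3 had an unadjusted p under 0.05. In the hormone response of control cells 10.8% of genes were called with 7 arrays and 0.17% with 8, and 0 of the 3 members; at an unadjusted p under 0.05 these were 0 of 3 with 7 arrays and 1 of 3, Chil4, with 8, against 22.2% and 8.55% of all genes. The comparisons share arrays: the hormone response of control cells and the untreated genotype difference both rest on the untreated control arrays.

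**Figure D3:**
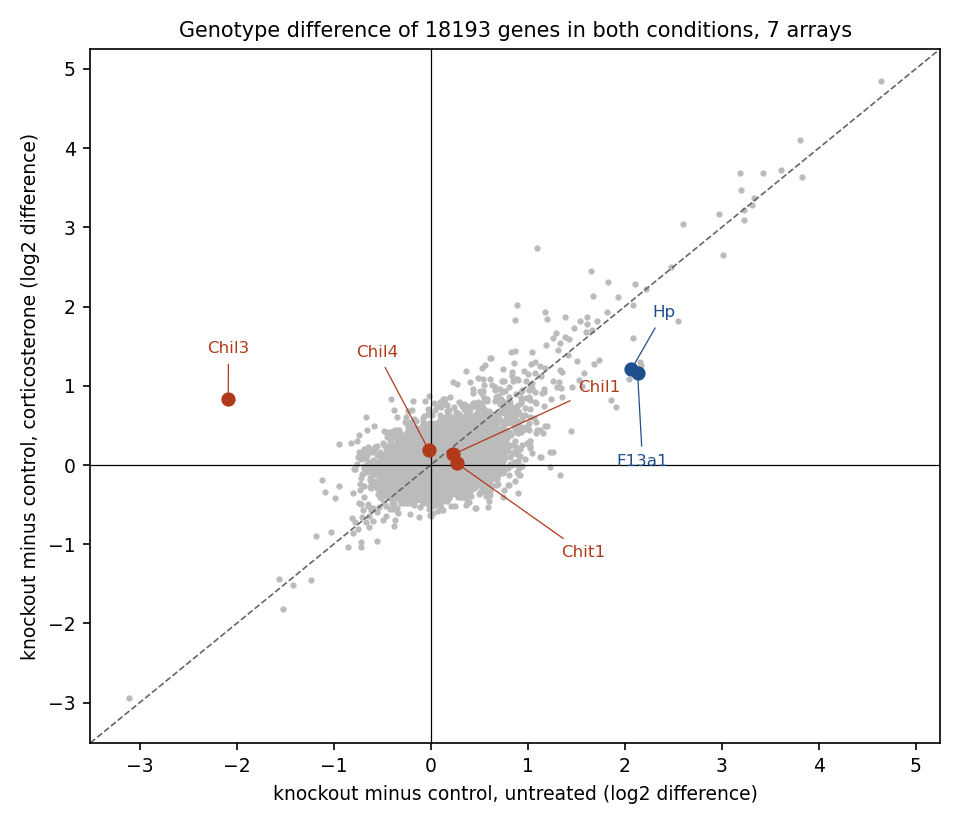
Knockout minus control with corticosterone (y axis) against the same without hormone (x axis) for each of the 18193 genes, as log2 differences with 7 arrays, with the chitinase-like genes in red, F13a1 and Hp in blue and a dashed line of equal difference. Chil3 lies at -2.09 and 0.84, where knockout cells are lower without and higher with the hormone, and Chil4, Chil1 and Chit1 lie near the origin.

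How many genes changed order between the genotypes depended on the array that stands apart. With 7 arrays, 2 genes of 18193 were lower in knockout cells by at least 0.5 without hormone and higher by at least 0.5 with it, Chil3 and Rhpn2. Rhpn2 differed by -0.66 and 0.60, at levels between 2.66 and 3.92. The opposite order, higher without hormone and lower with it, was met by 1 gene, Kera, a cornea proteoglycan, at 0.59 and -0.53. With 8 arrays 198 genes met the former pattern and 3 the latter. Rhpn2, at -0.42 without hormone, was then no longer among the former, and the untreated difference of Kera turned to -1.94. Rhpn2, Kera and Smarca1 were named after their values were seen.

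Chil3 was chosen for the difference of its hormone responses and is set aside here. Of the other genes, F13a1 and Hp were called for such a difference with 7 arrays, and in both the response was smaller in knockout cells. F13a1, the A subunit of coagulation factor XIII, had 8.15 and 8.95 in control untreated cells, 10.61 and 10.56 in control cells with corticosterone, 10.26 and 10.31 in knockout untreated cells, and 11.78 and 11.73 in knockout cells with corticosterone. Its response was 2.44 in control and 1.47 in knockout cells, a difference of -0.97 (SE 0.07, limma adjusted p = 0.00110). Hp, haptoglobin, which binds free haemoglobin, responded by 0.83 in control and -0.03 in knockout cells, a difference of -0.86 (SE 0.08, adjusted p = 0.0105). Untreated knockout cells had more of both, by 2.13 and 2.07, where they had less Chil3. The difference with 8 arrays was -0.57 for F13a1 and -1.42 for Hp. limma then called no gene for it, and 199 had an unadjusted p under 0.05.

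The genes whose pattern was most like that of Chil3 were taken by Pearson r over the 7 arrays, among 99 genes whose group means spanned at least 2 units. They were Orm1 (r = 0.976), Nipal1 (0.976), Orm2 (0.974), Tg (0.973), Slc10a6 (0.972), Rnf150 (0.969), Adamtsl4 (0.968) and Sult1a1 (0.966). Orm1 and Orm2 encode acute phase plasma proteins, Tg thyroglobulin, Slc10a6 a transporter of sulphated steroids and Sult1a1 a sulphotransferase. The points are 7 arrays that share 4 groups, so r mostly follows the step between untreated and treated cells. Over 8 arrays, among 794 such genes, 4 of the 8 were again in the first 8.

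In knockout cells Orm2 came closest of the 8 to the size of the Chil3 response. It read 3.14 and 2.77 in control untreated cells, 7.07 and 6.62 in control cells with corticosterone, 2.60 and 2.99 in knockout untreated cells, and 7.52 and 7.39 in knockout cells with corticosterone. Its responses, 3.70 in control and 4.66 in knockout cells, differed by 0.95 (limma adjusted p = 0.813). Adamtsl4, which encodes a fibrillin-binding matrix protein, rose by 1.23 and 2.15, which differed by 0.91 (adjusted p = 0.786). For the other 6 genes the responses differed by 0.21 to 0.44 with 7 arrays. With 8 arrays the difference was above 0 in 4 of the 8 genes, over a range of -1.14 to 1.15, so its sign depended on the array that stands apart. None of the 8 passed for it, and 6 had an unadjusted p under 0.05 with 7 arrays, as did 5.85% of all genes, but the 8 were picked for their likeness to Chil3.

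The 8 genes of the most opposite pattern were Trbv1 (r = -0.993), Cd3g (-0.991), Ly6d (-0.988), Ctsw (-0.986), Plac8 (-0.978), Fgr (-0.968), Gimap8 (-0.966) and Acod1 (-0.965). Trbv1 and Cd3g belong to the T cell receptor complex, Ctsw is a protease of cytotoxic lymphocytes, Fgr a Src family kinase of myeloid cells, and Acod1 the enzyme that makes itaconate. Cd3g read 5.39 and 5.24 in control untreated cells, 4.33 and 4.27 in control cells with corticosterone, 6.39 and 6.20 in knockout untreated cells, and 4.13 and 3.77 in knockout cells with corticosterone. The responses of Cd3g, -1.09 in control and -2.34 in knockout cells, differed by -1.25 (limma adjusted p = 0.532). None of the 8 passed for that difference, and 4 had an unadjusted p under 0.05, against 5.85% of all genes. 5 of the 8 were again in the first 8 over 8 arrays.

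**Figure D4:**
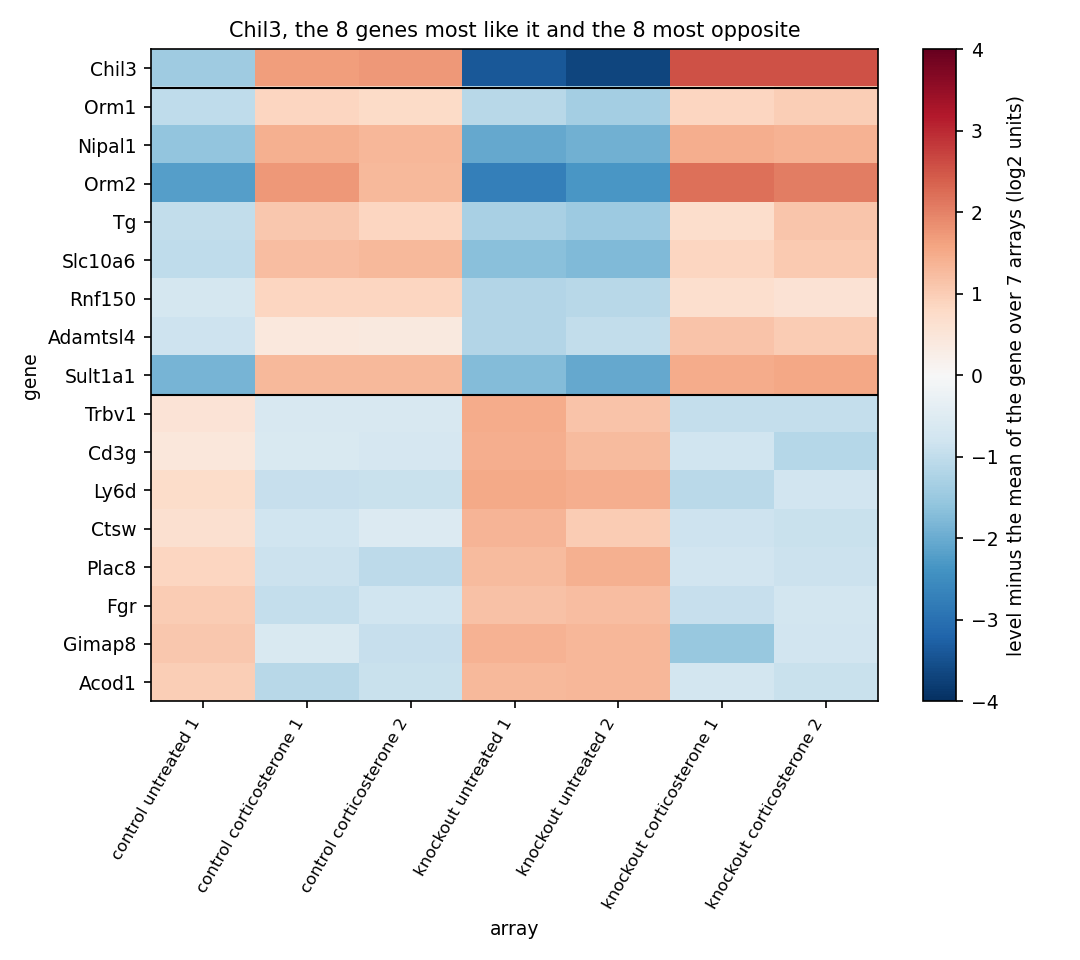
Level of Chil3, of the 8 genes most like it and of the 8 most opposite (rows) on 7 arrays (columns), each as the difference from the gene's own mean over those arrays (colour, log2 units). Chil3 and the genes like it are high with corticosterone in both genotypes, and Chil3 has the deepest low in untreated knockout cells.

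Of the other genes of glycosyl hydrolase family 18, 4 of 6 were measured and none changed in any comparison in limma, with 8 or 7 arrays, and none had an unadjusted p under 0.05. Chia1, the acidic chitinase, read 3.76 to 4.27 over the 8 arrays. Ovgp1, oviduct glycoprotein, read 3.27 to 4.18. Ctbs, the lysosomal chitobiase, read 10.34 to 10.45, and Chid1, a chitinase-like protein of endosomes and lysosomes, 8.12 to 9.09.

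IL-4 and IL-13 bind receptors that contain Il4ra and act through Stat6, the best known route to Chil3. Named for their place in this route, Stat6 read 11.43 to 11.74 and Il4ra 7.53 to 9.06, while Il4 (3.35 to 3.86) and Il13 (3.32 to 3.67) stayed low on all 8 arrays. Of 17 measured genes of the route, 3 rose and 1 fell with corticosterone in control cells (7 arrays), where 4.85% of all genes rose and 5.95% fell. In knockout cells 4 rose and 2 fell, against 5.75% and 7.95% of all genes. Klf4, a factor that works with Stat6, rose by 0.44 and 0.51 in control and knockout cells, and Socs3, an inhibitor of cytokine receptors, by 0.78 and 0.84. Irf4, a factor of alternative activation, fell by 0.49 and 0.66, and Kdm6b, a histone demethylase, rose by 0.51 and 0.28. In control cells 3 of these directions rested on leaving out 1 array: with 8 arrays the values were -0.97 for Socs3, 0.38 for Irf4 and -0.81 for Kdm6b, none of them called. The median differences of the list were 0.016 and -0.075, against -0.0047 and -0.019 over all genes. None of the 17 was called between genotypes, where 4 had an unadjusted p under 0.05 without hormone and 4 with it (14.3% and 9.82% of all genes), or for a difference of the responses, where 0 did (5.85% of all genes).

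Of 9 measured C/EBP, PU.1 and STAT genes, which encode factors of myeloid cells, 1 rose in control cells, and 1 rose and 3 fell in knockout cells (7 arrays). Of all genes 4.85% rose and 5.95% fell in control cells, and 5.75% and 7.95% in knockout cells. Cebpg rose by 0.28 (control) and 0.25 (knockout), and its control value with 8 arrays was 0.94, not called. In knockout cells Spi1, the gene of PU.1, fell by 0.19, Stat5a by 0.19 and Stat5b by 0.18. The median differences, -0.0096 and -0.030, were close to those over all genes. None was called between the genotypes, with 1 at an unadjusted p under 0.05 without and 1 with hormone (14.3% and 9.82% of all genes), or for a difference of the responses, with 0 (5.85%).

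The other well known genes of alternative activation moved with Chil3 only in part. Of 14 measured, 6 rose and 3 fell with corticosterone in control cells, and 6 rose and 4 fell in knockout cells (7 arrays). Of all genes 4.85% and 5.95% did so in control cells, and 5.75% and 7.95% in knockout cells. The medians of the list were 0.32 and 0.16, against -0.0047 and -0.019 over all genes. Arg1, arginase, read 7.06 and 5.69 in control untreated cells, 9.86 and 9.77 in control cells with corticosterone, 7.62 and 7.38 in knockout untreated cells, and 10.24 and 10.17 in knockout cells with corticosterone. It rose by 2.75 and 2.71, and the lectin Clec10a rose by 1.86 and 1.55. Il1rn, the antagonist of the IL-1 receptor, rose by 0.43 and 0.30, and Clec7a, the fungal glucan receptor, fell by 0.66 and 0.52.

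Between the genotypes, 4 of these 14 were higher and 3 lower in untreated knockout cells, and 3 were higher and 2 lower with corticosterone. Of all genes, 1.43% were called higher and 0.555% lower in the former comparison, and 1.29% and 0.335% in the latter. None was called for a difference of the responses in limma, where 6 of 14 had an unadjusted p under 0.05, against 5.85% of all genes, and the median was -0.11, against -0.0097 over all genes. Retnla (Fizz1), another secreted product of alternatively activated macrophages, named after its values were seen, was higher in knockout cells by 1.15 without hormone (limma adjusted p = 6.04e-06) and by 0.91 with it (adjusted p = 4.24e-06), both with 7 arrays. With 8 arrays these were 1.89 and 0.91, and neither was called. In untreated knockout cells Retnla was thus higher and Chil3 lower than in control cells. Lower there too, with 7 arrays, were Cdh1 (-1.18), Mrc1 (-0.24) and Clec7a (-0.22), against the 4 of the list that were higher. Clec7a turned to 0.04 with 8 arrays. Cdh1 and Mrc1 were also named after their values were seen.

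Of 11 measured genes whose products bind or process chitin or chitinase-like proteins, 3 fell in control cells, where 5.95% of all genes fell, and 1 rose and 4 fell in knockout cells, where 5.75% rose and 7.95% fell (7 arrays). Cd44, a hyaluronan receptor, fell by 0.23 and 0.15, and Amdhd2, an enzyme of amino sugar breakdown, by 0.18 and 0.13. With 8 arrays Cd44 rose instead in control cells, by 0.06, and was not called. Hexa, a lysosomal hexosaminidase subunit, rose by 0.10 in knockout cells. Tlr2, a receptor of microbial lipoproteins, fell by 0.31 in knockout cells and was higher in knockout than in control cells by 0.75 without hormone and 0.39 with it. 1 gene was higher and 1 lower in untreated knockout cells, against 1.43% and 0.555% of all genes, and 1 was higher with hormone, against 1.29%. None was called for a difference of the responses, where 2 had an unadjusted p under 0.05, against 5.85% of all genes. With 8 arrays limma called no gene of any of these 5 lists in any comparison, and 0 to 5 genes of a list had an unadjusted p under 0.05.

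Markers of other cells that can make Chil3 were read beside it. Of the 12 measured neutrophil markers the mean level was 5.89 on both arrays in control untreated cells, 6.03 to 6.06 in control cells with corticosterone, 5.86 to 5.97 in knockout untreated cells and 5.97 to 6.02 in knockout cells with corticosterone. This mean is over genes that moved both ways with the hormone. With 8 arrays limma called none of the 12 in any comparison. It then called 0.17% of all genes in the hormone response of control cells and 0.148% in that of knockout cells. Lcn2, lipocalin 2, which sequesters bacterial siderophores, read 5.63 and 4.55 in control untreated cells, 8.12 and 7.77 in control cells with corticosterone, 5.497 and 5.39 in knockout untreated cells, and 7.62 and 7.78 in knockout cells with corticosterone. It rose by 2.31 in control cells and 2.25 in knockout cells. Mmp8, a collagenase of neutrophil granules, read 8.95 to 10.36 over the 8 arrays and rose by 0.41 and 0.69. Among other granule genes, Elane read 2.72 to 3.15, Mpo 3.12 to 3.60 and Camp 4.06 to 4.41, with no call. Ltf fell by 1.01 in control and 0.65 in knockout cells with 7 arrays, and Mmp9 by 0.25 and 0.38. Cxcr2 fell by 0.42 and 0.52, and S100a8 by 0.08 and 0.16. Of these falls, that of Ltf in knockout cells and those of Mmp9, Cxcr2 and S100a8 in control cells were not called. With 8 arrays S100a8 and Mmp9 rose in control cells instead, by 0.78 and 0.07. S100a9 differed by 0.55 and -0.34 with 7 arrays, Ngp by 0.16 and 0.11 and Csf3r by -0.02 and -0.12, none of them called. With 8 arrays their control values were -1.79, -0.58 and 0.22. S100a9 read 9.65 on the array that stands apart and 4.96 to 5.78 on the others. The part of neutrophils in the Chil3 values was not tested.

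Of the monocyte markers, 3 of 5 were measured besides Chil3. Their mean level was 8.53 to 8.57 in control untreated cells, 7.30 to 7.48 in control cells with corticosterone, 8.89 to 8.95 in knockout untreated cells and 7.64 to 7.73 in knockout cells with corticosterone. All 3 fell with the hormone in both genotypes with 7 arrays, as Chil3 rose. In control and knockout cells Ccr2 fell by 1.32 and 1.29, Plac8 by 1.80 and 2.15, and F10 by 0.30 and 0.25. Between hormone-treated genotypes, where Chil3 was higher in knockout cells, Ccr2 differed by 0.80, Plac8 by 0.14 and F10 by -0.06. Without hormone, where Chil3 was lower in knockout cells, they differed by 0.77, 0.50 and -0.11 (0.17 for F10 with 8 arrays). With 8 arrays Plac8 was called lower with the hormone in knockout cells, in a fit that called 0.148% of genes. Ccr2 and F10 were then not called in any comparison. The part of such cells in the Chil3 values was not tested. The eosinophil markers, 6 of 8 measured, had means of 4.76 to 5.38, 4.91 to 4.99, 5.28 to 5.34 and 4.92 to 4.996 in the same order of groups.

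The T cell markers, 4 of 5 measured, had means of 6.69 to 6.97 in control untreated cells, 5.55 to 5.59 in control cells with corticosterone, 7.21 to 7.27 in knockout untreated cells and 5.29 to 5.36 in knockout cells with corticosterone. By the mean of this list the 4 groups stood in the reverse of the Chil3 order, but its genes differed. Cd3g, which is also among the genes picked for their opposite pattern, kept that order on every array. Lat read 9.48 and 9.22 in control untreated cells and 9.16 and 9.23 in knockout untreated cells. Cd3e overlapped between the genotypes with hormone, at 5.27 and 5.63 in control and 5.33 and 5.48 in knockout cells. With 8 arrays none of the 4 was called between the genotypes, where limma called no gene at all. The B cell markers, 4 of 5 measured, had means of 6.85 to 7.53, 6.59 on both, 7.74 to 7.93 and 6.55 to 6.68 in the same order of groups. The 8 markers of mast cells and basophils had means of 4.46 to 5.08, 5.53 to 5.54, 5.24 to 5.27 and 5.597 to 5.72. That mean was thus higher with the hormone, but its genes differed. In knockout cells Fcer1a read 4.62 and 4.53 untreated and 6.21 and 6.29 with corticosterone, and Ms4a2 3.19 and 3.86 untreated and 3.15 and 3.10 with it. Cma1 read 6.97 to 7.36 and Mcpt8 4.49 to 4.84 over the 8 arrays. With 8 arrays limma called none of the 8 in either hormone response, where it called 0.17% and 0.148% of all genes. The part of these cells in the values of Chil3 was not tested.

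**Figure D5:**
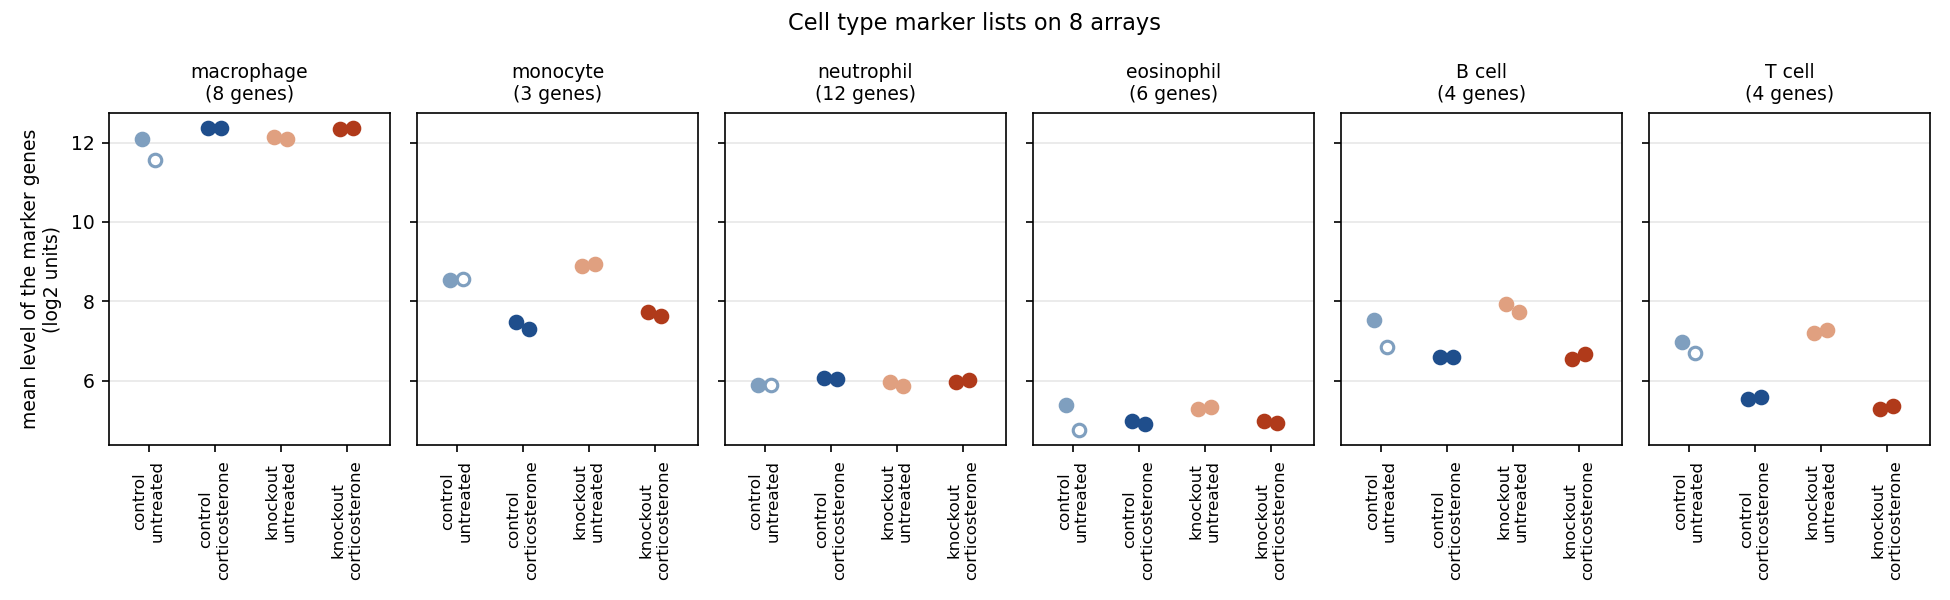
Mean level (y axis, log2 units) of the measured genes of 6 cell type marker lists on the 8 arrays, in the 4 groups (x axis), with 1 point per array and control untreated replicate 2 as an open point. The T cell list falls from 7.21 to 7.27 in untreated knockout cells to 5.29 to 5.36 with corticosterone, while the neutrophil list stays between 5.86 and 6.06 on every array.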

How the data were processed

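RNA of 8 samples, 4 groups of 2, was read on Affymetrix arrays. The authors deposited log2 expression values per probe set, made with RMA in R 2.7 per the submitters' processing notes. RMA values are relative within an array, so a change in total RNA leaves no trace, and low values are compressed. Of 45101 probe sets, 64 controls were left out. Of those tested, 34945 named 1 gene, 932 several and 9160 were not named here. Each gene took its probe set with the highest mean that named 1 gene, which gave 18193 genes. limma 3.58.1 in R 4.3.3 was fitted with 1 coefficient per group and a variance trend, and tested on simulated data. Adjusted p-values are limma's, adjusted over all genes (Benjamini-Hochberg), with a call at a value under 0.05. The fits had 4 (8 arrays) and 3 (7 arrays) residual degrees of freedom. Intervals are 95% and cover the spread between arrays, whose number limits the precision.

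Named are the members, Nr3c2 and Nr3c1, the 8 genes most like and most opposite to Chil3, genes called in the interaction and up to 4 of each list with the smallest p. The members and lists were chosen with earlier results of these data known. Upstream sequences are from RefSeq, GRCm38.p6, and all 4 genes matched. Alternatives left out each array, added a replicate block, changed the filter, the centring, the probe set rule, the variance trend and the array weights, or used only the arrays compared.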

Additional observations from a re-analysis of the deposited data

Results flagged for a closer look

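For 2 genes the hormone response differed between knockout and control cells by the interaction term of limma with 7 arrays. The difference was -0.97 for F13a1 and -0.86 for Hp, a smaller response in knockout cells. Neither was called with 8 arrays, where the values were -0.57 and -1.42. Chil3 and the probe set it shares with Chil4 were chosen for this difference. The fits included them, but no p-value is given, since the choice fixed the outcome. Groups of 2 arrays were too small for a test of outlying samples.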

How the results depend on the processing

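The 30 comparisons of Chil4, Chil1 and Chit1 had 414 values under alternatives, of which 402 kept their direction or stayed without a call and 12 changed. All 148 alternative values of Chil3 kept their direction. Leaving out 1 array at a time moved Chil3 with 8 arrays from 3.14 to 3.43 in the control response, from -2.09 to -1.79 between untreated genotypes and from 2.63 to 2.92 for the difference of responses. With 7 arrays it moved from 5.92 to 6.20 in the knockout response, from -2.22 to -1.95 between untreated genotypes and from 2.79 to 3.06 for the difference of responses. For Chil4 the range was 0.23 to 0.38 in the control response with 8 arrays and 0.43 to 0.52 in the knockout response with 8 or 7 arrays. Without control untreated replicate 1 the control response was 0.34, with the array that stands apart as the lone untreated control. With 8 arrays the knockout response of Chil4, 0.47, passed with array weights (limma adjusted p = 0.0120) and with only the arrays compared (0.0370). The former fit called 1956 of 18193 genes and the latter 1920, against 27 in the fit reported. In all, 4 of 15 alternatives of this response changed, with adjusted p from 0.0120 upward. For Chil1 the ranges with 8 arrays were -2.01 to -0.49 in the control response, -1.29 to 0.23 between untreated genotypes and -0.10 to 1.42 for the difference of responses, and with 7 arrays -0.87 to -0.31 in the knockout response. The cause of these changes was not tested.

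The correlation of the replicate differences between groups ran from -0.29 to 0.40. Both ends involved control untreated cells, whose replicate 2 stands apart, and the other groups gave -0.23 to 0.04. This cannot settle whether the replicate numbers pair the samples. With the replicate number as a block the Chil3 response of control cells stayed at 3.29 with 8 arrays, and the count of genes called went from 31 to 6 in the control response and from 27 to 1 in the knockout response with 8 arrays. With 7 arrays the block moved the count between untreated genotypes from 362 to 186. Over all alternatives the count of genes called ran, with 8 arrays, from 0 to 11678 in the control response (31 as reported), 0 to 2493 in the knockout response (27), 0 to 11715 between untreated genotypes (0), 0 to 490 between treated genotypes (0) and 0 to 10675 for the difference of responses (0). The 3 highest of these counts came without control untreated replicate 1. With 7 arrays they ran from 853 to 3057 (1964), 1289 to 4118 (2493), 65 to 927 (362), 86 to 490 (296) and 0 to 8 (3). A filter at a mean of 6 left out Chil4, Chil1 and Chit1, which then had no value. Signal over background limits Chil4 and Chit1, whose levels stayed under the 25th percentile of every array, which lay between 3.49 and 3.62.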
